A study of Drosophila melanogaster with 6 samples.

Results

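Presynaptic release genes were examined in young T4/T5 neurons of the Drosophila melanogaster optic lobe, the neurons that compute the direction of visual motion. The genes were chosen by name, as a list of 37 synaptic vesicle, SNARE, endocytosis and active zone genes out of the 23932 annotated features of the count table. Earlier results of these data were known when the list was made. Of the 37 names, 36 were found in the table, Syd-1 under the annotation symbol RhoGAP100F and Caps under Cadps, and Sv2 was not matched to any feature. RNA came from sorted neurons of larvae at the wandering stage of the third instar, with 3 control and 3 knockdown libraries. Neurons of both groups carried 1 copy of the R23G12-Gal4 driver and 1 copy of UAS-CD8-GFP, the membrane reporter used for the sort, so the cells are those in which this driver is active. The control group also carried UAS-cherry-IR, a hairpin against a fluorescent protein, and the knockdown group carried UAS-DRGX-IR, a hairpin against Drgx, which encodes a paired-like homeobox transcription factor. By the order of the genotypes the Drgx hairpin lies on the second chromosome and the control hairpin on the third, so transgene position cannot be told apart from the knockdown. Nothing in the labels says whether the libraries of a group came from separate animals, so p-values measure only the spread between these libraries.

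At a chemical synapse, vesicles filled with transmitter are held at the active zone, a protein scaffold beneath the presynaptic membrane that also gathers calcium channels. Fusion is driven by SNARE proteins of the vesicle and of the plasma membrane, which zip together under the control of Rop, unc-13 and complexin, and calcium entry triggers the last step. Vesicle membrane is then retrieved by clathrin, its adaptors and dynamin. At the end of larval life T4/T5 neurons are newly born and are still extending neurites, before the synapses of the adult visual system form.

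The libraries held 29587960 to 44054609 counts, and every gene of the list that was tested had at least 300 counts in each library. Drgx was at 2110, 2156 and 2160 CPM (counts scaled to library size with TMM factors) in the control libraries and at 729, 728.7 and 663.4 CPM in the knockdown libraries, so that 33.0% of the control level was left. The 9 transcription factor genes used as T4/T5 markers were all detected. Their summed level was 7152 to 7434 CPM in control and 4024 to 4222 CPM in knockdown, Drgx being 1 of them. Besides Drgx, Sox102F, dac, SoxN and bi were called lower, at log2 fold changes of −2.05, −0.88, −0.60 and −0.44, and acj6, TfAP-2, grn and ato were not called. Of these, acj6 was higher in every knockdown library than in any control library (log2 fold change 0.22, adjusted p 0.071 by edgeR). DESeq2 and limma-voom each called 1 of the 9 markers higher. elav, which encodes a neuronal RNA-binding protein, was at 1026 CPM in control and 1010 CPM in knockdown (adjusted p 0.895 by edgeR's quasi-likelihood test, adjusted over all 9932 tested features, as for each adjusted p from here on).

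The release machinery was broadly expressed before these neurons form adult synapses. Of the 37 listed genes, 34 passed the expression filter, and together they took 0.847% to 0.875% of all counts in the control libraries and 0.736% to 0.771% in the knockdown libraries. The genes not measured were Sv2, stnA and stnB. The last 2 encode the stonins, endocytic adaptors made from a single dicistronic transcript. They share all 8332 bases of their annotated exons and were listed at 0 in every library. How reads shared by overlapping genes were counted is not given in the sources used here, so the 0 gives no level for either gene.

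To compare genes with each other, levels were divided by the length of annotated exon. On this scale the median of the 34 genes was 39.0 CPM per kb in control, against 12.9 CPM per kb over 8538 tested protein-coding genes. Above that median of all genes stood 28 of the 34, and 6 stood above the 90th percentile of 80.0 CPM per kb. These 6 were Caps, Csp, Rop, nSyb, shi and Syx1A. Caps, which acts in dense-core vesicle release, was the highest at 128 ± 3.78 CPM per kb (SD, n = 3). Csp, a vesicle chaperone of SNARE proteins, followed at 116 ± 5.60 CPM per kb. Rop, the Sec1/Munc18 protein that holds syntaxin, stood at 103 ± 4.20 CPM per kb, and its libraries overlapped those of nSyb, the neuronal vesicle SNARE, at 96.4 ± 3.51 CPM per kb. The order depends on the length used. The longest transcript is as long as the annotated exon for Rop (2638 bases). It is shorter for nSyb (3570 against 4072 bases) and shi (4768 against 5989 bases), and with that length both would stand above Rop.

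The lower end of the same order held brp, Rab3-GEF, Syn, Synj and the frequenin genes. brp, the scaffold of the T-bar at the fly active zone, was at 10.5 ± 0.512 CPM per kb in control. Rab3-GEF, the exchange factor of the vesicle GTPase Rab3, was at 10.3 ± 1.64 CPM per kb, and Syn, the vesicle-clustering protein synapsin, was at 10.3 ± 0.823 CPM per kb. These 3 did not differ beyond their spread, and they lay at percentiles 44.8 to 45.3 of the tested protein-coding genes. Synj, the synaptojanin lipid phosphatase, Frq2 and Frq1 were the lowest at 8.01, 6.40 and 2.45 CPM per kb. Along the whole order, 19 of the 33 neighbouring pairs had overlapping control libraries.

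**Figure D1:**
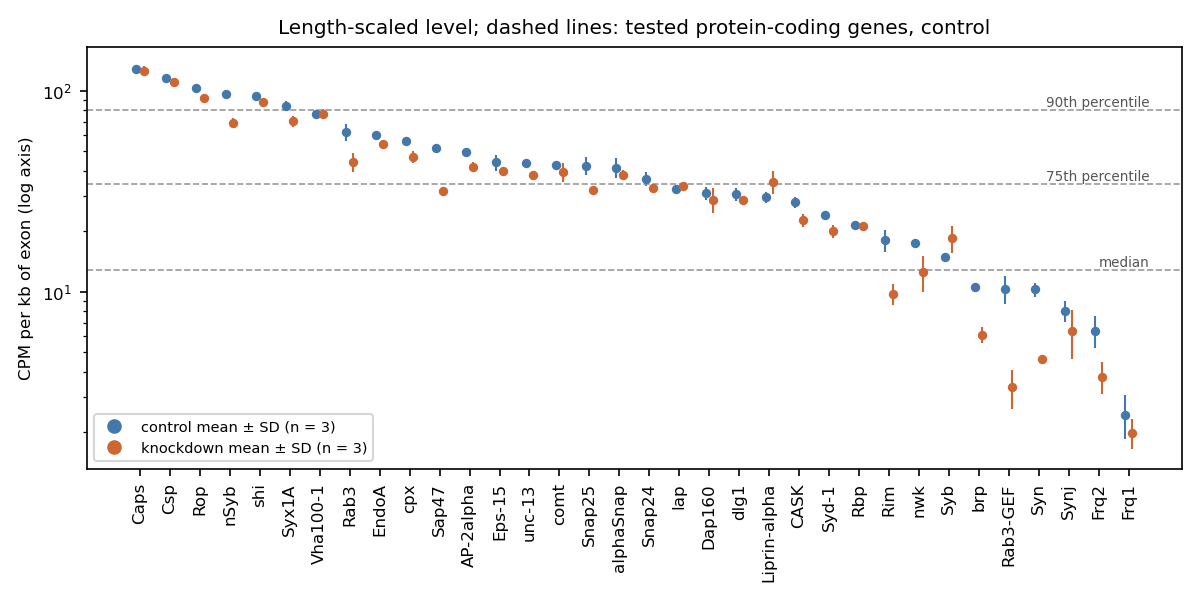
Length-scaled level of the 34 tested genes (vertical axis, CPM per kb of annotated exon, log axis), ordered by their control mean. Points are means of 3 libraries and bars are SD. Dashed lines give the median, 75th and 90th percentile of 8538 tested protein-coding genes in control. Caps stands highest at 128 CPM per kb and Frq1 lowest at 2.45 CPM per kb, and brp, Rab3-GEF and Syn fall below the median line in both groups.

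Whether the machinery depended on Drgx was examined gene by gene. Of the 34 tested genes, 9 fell in knockdown at an adjusted p under 0.05, or 26.5%, and none rose. Over all tested features, 4.11% were called lower and 2.10% higher. Among 5299 protein-coding genes at least as abundant in control as the least abundant gene of the list (Frq1, 14.1 CPM), 6.13% were called lower. This cutoff sets a floor and does not match the genes for abundance. The falls were those of Rab3-GEF, Syn, Rim, brp, Frq2, Sap47, Rab3, nSyb and cpx. The count of 0 for rises came with 1 gene, Liprin-alpha, at an unadjusted p under 0.05, and DESeq2 and limma-voom also called 0 higher. The count of falls was 16 with DESeq2, 13 with limma-voom and 14 with a filter of 10 counts in every library, and 6 to 9 when 1 library was left out, the lowest of these without control replicate 2 or control replicate 3.

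Most genes of the list had a lower mean in knockdown, those that did not pass included. The median log2 fold change was −0.22, where that of all tested features was 2.7e-05, and 30 of 34 values were below 0. In 19 genes, or 55.9%, every knockdown library lay below every control library, against 12.4% of all tested features. The latter share includes features less abundant than any gene of the list, and none was taken over abundant genes alone. The summed level of the 34 genes was 8659 to 8701 CPM in control and 7279 to 7555 CPM in knockdown, without overlap. In this bulk measurement, fewer cells with a transcript and less transcript per cell cannot be told apart.

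**Figure D2:**
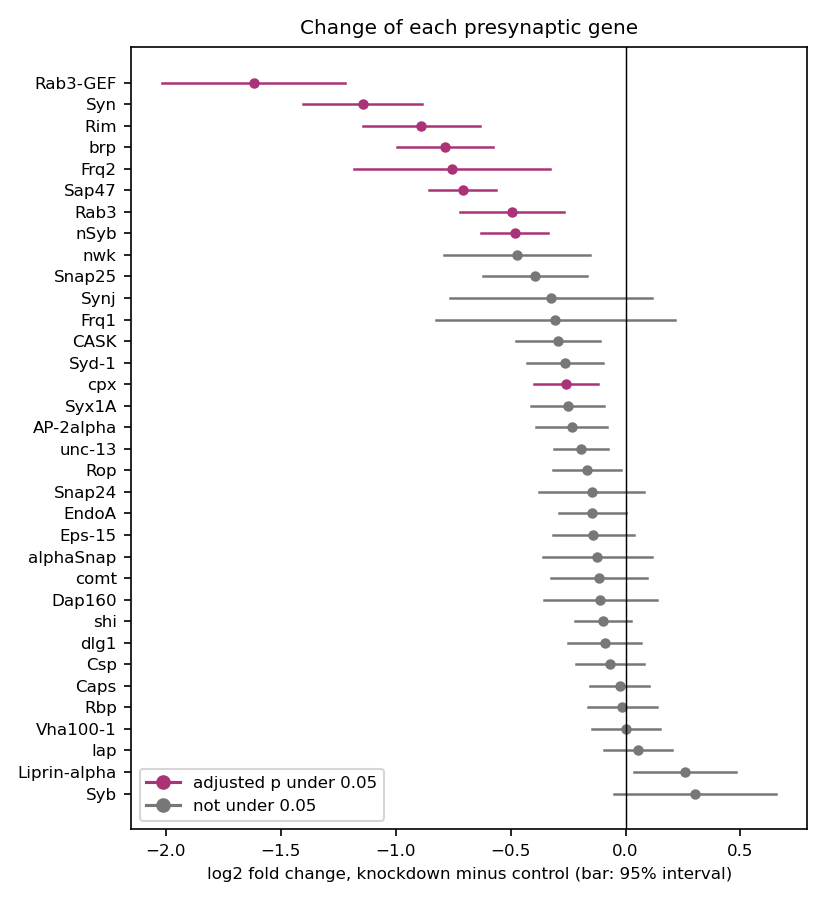
Log2 fold change of each tested gene (horizontal axis, knockdown minus control, with the 95% interval from edgeR as a bar), ordered from the largest fall at the top. Purple marks the 9 genes with an adjusted p under 0.05, all below 0, from Rab3-GEF at −1.62 to cpx at −0.26, and grey marks the other 25.

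Among the active zone scaffold genes, brp and Rim fell and the other 6 tested did not pass. brp (FBgn0259246, chromosome arm 2R, 9503765 to 9541565 in BDGP6.54) was at 148, 134 and 141 CPM in control and at 76.0, 78.9 and 90.6 CPM in knockdown. All 3 knockdown libraries lay well below the control libraries, at 58.1% of the control mean (log2 fold change −0.78, SE 0.0932, adjusted p 5.90e-04). Rim (FBgn0053547, 3R, 17872748 to 17916578), which links Rab3 on the vesicle to calcium channels, was at 233, 294 and 245 CPM in control and 120, 146 and 152 CPM in knockdown. The groups did not overlap, although control replicate 2 stood above the other control libraries (log2 fold change −0.89, SE 0.114, adjusted p 9.35e-04). Both falls passed in all 14 fits that were run, the main fit and its 13 alternatives.

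The partners of brp and Rim in the scaffold had smaller differences. Rbp, the RIM-binding protein, was at 188, 198 and 204 CPM in control and 195, 192 and 197 CPM in knockdown. These groups overlapped, and the log2 fold change of −0.01 had a 95% interval from −0.16 to 0.14. unc-13, the priming factor and the most abundant gene of the list in CPM, was at 1024, 968 and 975 CPM in control and 833, 906 and 852 CPM in knockdown. Its groups did not overlap, but the log2 fold change of −0.20 (SE 0.0523) had an adjusted p of 0.0627, which passed with DESeq2 (0.0201) and limma-voom (0.0306) and without knockdown replicate 2 (0.0373). Of the annotated exon of unc-13, 28.4% is shared with other features, 1 of them an antisense RNA with 1238 to 2704 counts. The library kit does not mark strand, so strand cannot assign reads in the shared part. How such reads were counted is not given in the sources used here, so the value of unc-13 is uncertain to that extent.

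Proteins that assemble the active zone were close to the threshold or overlapped. Syd-1, a RhoGAP-domain protein that seeds new active zones, was at 324, 320 and 301 CPM in control and 284, 260 and 244 CPM in knockdown, without overlap (log2 fold change −0.26, adjusted p 0.0727). It passed with DESeq2, limma-voom, a filter of 10 counts in every library, and without knockdown replicate 1. Its partner Liprin-alpha was at 192, 188 and 171 CPM in control and 248, 218 and 192 CPM in knockdown, so it was one of the few genes with a higher knockdown mean, with groups that overlapped (log2 fold change 0.26, 95% interval 0.03 to 0.48, adjusted p 0.217). CASK had a log2 fold change of −0.29 (adjusted p 0.073), and passed with DESeq2 (0.0117) and with the filter of 10 counts in every library (0.0419). The value was −0.09 for dlg1, a membrane-associated guanylate kinase scaffold (adjusted p 0.624). CASK shares 28.0% of its exon, all on the same strand, with the noncoding RNA gene lncRNA:CRG, which was listed at 0. How shared reads were counted is not given in the sources used here. This 0 therefore gives no level for lncRNA:CRG, and CASK may lack reads from the shared part.

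Of the SNARE genes, nSyb fell and the 4 others did not pass. nSyb (FBgn0013342, 3L, 1630348 to 1637752), the vesicle SNARE of neurons, was at 404, 397 and 377 CPM in control and 272, 299 and 273 CPM in knockdown. Its 3 knockdown libraries lay below all control libraries, at 71.6% of the control mean (log2 fold change −0.48, SE 0.0651, adjusted p 0.00128), and the fall passed in all 14 fits. Syb, the more widely expressed form, was at 18.4, 19.3 and 17.9 CPM in control and 18.9, 25.0 and 24.6 CPM in knockdown. Its groups overlapped, with a log2 fold change of 0.30 (95% interval −0.05 to 0.66, adjusted p 0.394).

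For the plasma membrane SNAREs Syx1A and Snap25, every knockdown library lay below every control library, but neither passed. Syx1A, the neuronal syntaxin, was at 333, 372 and 343 CPM in control and 280, 312 and 287 CPM in knockdown (log2 fold change −0.25, SE 0.0703, adjusted p 0.0741). Snap25 was at 85.4, 102 and 103 CPM in control and 75.9, 70.1 and 74.7 CPM in knockdown (log2 fold change −0.39, SE 0.101, adjusted p 0.052). Both passed with DESeq2 (adjusted p 0.0165 and 0.00468), with limma-voom and with the filter of 10 counts in every library. Snap25 also passed with no filter (0.0426) and without control replicate 1 (0.0261), and Syx1A without knockdown replicate 2 (0.0488). Snap24, a second SNAP-25 protein of the fly, had overlapping groups with a log2 fold change of −0.15 (95% interval −0.38 to 0.08). Syx1A shares 10.7% of its exon with eIF4EHP, itself at 3684 to 7160 counts a library, so part of its count may be assigned to the other gene.

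Within a library, the 2 synaptobrevin genes could be set against each other per kb of exon. nSyb stood above Syb by a ratio of 6.69, 6.26 and 6.41 in the control libraries and of 4.37, 3.63 and 3.38 in the knockdown libraries. The ratio was lower in every knockdown library, at a mean of 3.80 ± 0.517 against 6.46 ± 0.220 (SD, n = 3 each). Snap25 and Snap24 were near equal, at a ratio of 1.17 ± 0.198 in control and 0.979 ± 0.0752 in knockdown, with overlap. The ratio of Frq2 to Frq1 was 2.78 ± 1.15 in control, set apart by control replicate 3 at 4.10, and 1.91 ± 0.122 in knockdown. No test was made on these ratios, since with 3 libraries a group the smallest p of an exact permutation test is 0.1.

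**Figure D3:**
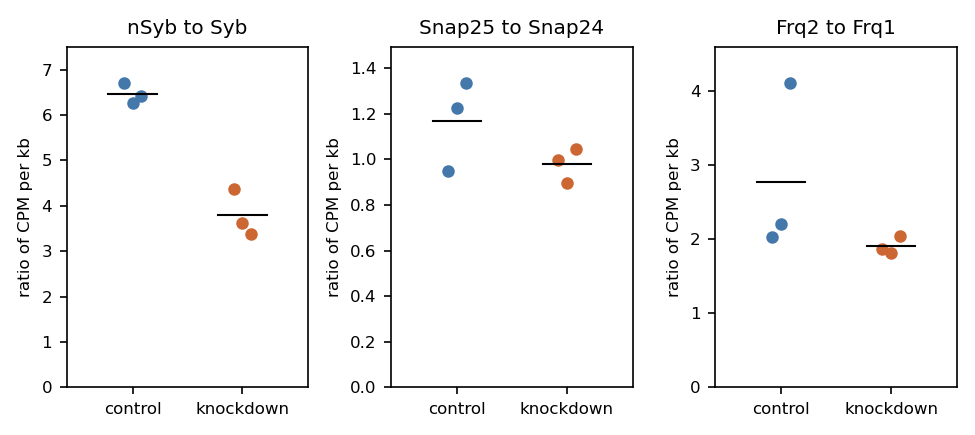
Ratio of the length-scaled levels of paralogous genes within each library (vertical axes, from 0), in control and knockdown. Points are libraries and horizontal lines are means. The ratio of nSyb to Syb is 6.26 to 6.69 in control and 3.38 to 4.37 in knockdown, while the values of the other 2 pairs overlap between groups.

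Among the factors that act on SNAREs, only cpx passed, and by a narrow margin. cpx (FBgn0041605, 3R, 4280221 to 4304604) encodes complexin, which clamps the partly assembled SNARE complex. It was at 635, 624 and 666 CPM in control and 555, 558 and 496 CPM in knockdown, without overlap and at 83.6% of the control mean (log2 fold change −0.26, SE 0.0625, adjusted p 0.0387). The call was lost with scaling to library size only, with the replicate number as a block, and without control replicate 1, 2 or 3 or knockdown replicate 1 or 3, at adjusted p from 0.0665 to 0.152. Rop, at 277, 259 and 278 CPM in control and 252, 234 and 239 CPM in knockdown, did not pass (log2 fold change −0.17, 95% interval −0.32 to −0.02, adjusted p 0.225).

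The disassembly factors and Caps had overlapping groups. comt, the ATPase NSF that takes used SNARE complexes apart, was at 130.0, 129 and 136 CPM in control and 127, 107 and 131 CPM in knockdown (95% interval of the log2 fold change −0.33 to 0.09). alphaSnap, its adaptor, had a log2 fold change of −0.12 (95% interval −0.36 to 0.12). Caps, at 735 CPM in control and 722 CPM in knockdown, had a log2 fold change of −0.02 (95% interval −0.15 to 0.10), and its sign turned with scaling to library size only (0.00) and without knockdown replicate 3 (0.01).

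Vesicle proteins and the Rab3 pair held the largest falls of the list, with 4 of 6 tested genes called. Rab3-GEF (FBgn0030613, X, 15089682 to 15113762) was at 106, 77.9 and 86.1 CPM in control and 30.0, 35.4 and 22.6 CPM in knockdown. All knockdown libraries lay far below the control libraries, with 32.6% of the control mean left (log2 fold change −1.62, SE 0.177, adjusted p 3.42e-04). Rab3 itself (FBgn0005586, 2R, 10721335 to 10729203), the vesicle GTPase that this factor activates, was at 208, 246 and 251 CPM in control and 151, 164 and 186 CPM in knockdown. The groups did not overlap, at 71.0% of control (log2 fold change −0.49, SE 0.101, adjusted p 0.0164), and the call was lost without control replicate 2 or 3 or knockdown replicate 1 or 2, at adjusted p from 0.0557 to 0.0921.

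Syn (FBgn0004575, 3R, 10190689 to 10222442), which tethers vesicles in the reserve pool, was at 60.4, 54.5 and 64.0 CPM in control and 26.1, 28.3 and 26.6 CPM in knockdown. The knockdown libraries were close together and at 45.2% of the control mean (log2 fold change −1.14, SE 0.115, adjusted p 1.87e-04). Sap47 (FBgn0013334, 3R, 15935100 to 15962124), a synapse-associated protein of nerve terminals, was at 330, 339 and 328 CPM in control and 192, 207 and 211 CPM in knockdown. Its groups lay far apart for their spread, at 61.2% of control (log2 fold change −0.71, SE 0.0648, adjusted p 9.41e-05). Rab3-GEF, Syn and Sap47 passed in all 14 fits. Syn shares 4.29% of its exon with the nested gene Timp, at 4 to 97 counts a library, and Rab3-GEF 5.29% with Cyp4s3, at 0 to 1 counts.

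Other vesicle proteins did not pass. Csp was at 347, 376 and 345 CPM in control and 360, 331 and 327 CPM in knockdown, with overlap (log2 fold change −0.07, 95% interval −0.22 to 0.08). Vha100-1, the neuronal subunit of the proton pump that energises transmitter loading, was at 256, 249 and 251 CPM in control and 250, 267 and 240 CPM in knockdown. Its log2 fold change of 0.00 (95% interval −0.15 to 0.15) turned sign with limma-voom and without control replicate 2 or 3 or knockdown replicate 2.

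The frequenin genes encode neuronal calcium sensors and lie side by side on the X chromosome, at low levels. Frq2 (FBgn0083228, X, 18177612 to 18204407) was at 23.2, 29.9 and 33.4 CPM in control and 13.6, 18.7 and 19.0 CPM in knockdown. The groups did not overlap (log2 fold change −0.76, SE 0.190, adjusted p 0.0465), but of the fits with a library removed, the call held only in that without control replicate 1, and in the other 5 the adjusted p was 0.074 to 0.184. Frq1 was at 14.5, 17.3 and 10.4 CPM in control and 9.26, 13.1 and 11.8 CPM in knockdown, with overlap and a wide 95% interval from −0.83 to 0.22. As close paralogues the 2 genes may share reads, so their split is uncertain.

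**Figure D4:**
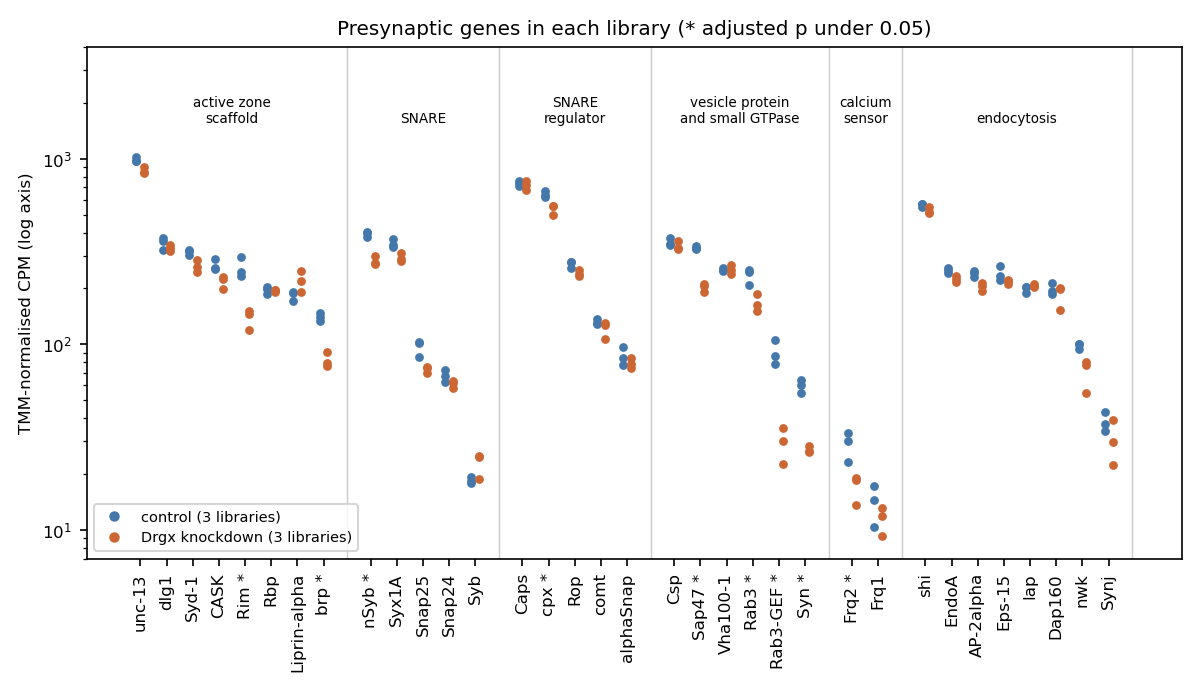
TMM-normalised CPM (vertical axis, log axis) of the 34 tested genes in each library, grouped by role. Blue points are the 3 control libraries, orange points the 3 knockdown libraries, and asterisks mark an adjusted p under 0.05. The separated pairs of clusters at Rab3-GEF (77.9 to 106 against 22.6 to 35.4 CPM) and Syn (54.5 to 64.0 against 26.1 to 28.3 CPM) contrast with overlapping points at Rbp, Csp and lap.

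Of the 8 tested genes of vesicle endocytosis, none was called in the main edgeR fit or by limma-voom, 2 had an unadjusted p under 0.05 in edgeR, and DESeq2 called those 2, nwk and AP-2alpha, lower. In edgeR with the filter of 10 counts in every library, nwk was also called lower (adjusted p 0.0482). shi, the dynamin that cuts vesicles from the membrane, was at 548, 570.0 and 569 CPM in control and 549, 510.1 and 516 CPM in knockdown, with overlap (log2 fold change −0.10, 95% interval −0.22 to 0.02). lap, the clathrin assembly protein AP180, was at 205, 190 and 203 CPM in control and 210.0, 207 and 203 CPM in knockdown (log2 fold change 0.06, 95% interval −0.09 to 0.20). nwk, an F-BAR protein of the membrane and actin, was at 94.1, 101 and 99.8 CPM in control and 77.3, 54.3 and 80.7 CPM in knockdown, where knockdown replicate 2 was the lowest (log2 fold change −0.47, adjusted p 0.0966). AP-2alpha, a clathrin adaptor subunit, had a log2 fold change of −0.23 (adjusted p 0.088). EndoA, Eps-15, Dap160 and Synj, which encode endophilin, 2 endocytic scaffolds and synaptojanin, ran from −0.32 for Synj to −0.11 for Dap160, at adjusted p from 0.312 to 0.729. Synj was at −0.55 without knockdown replicate 1 and at −0.15 without knockdown replicate 2, and Dap160 at 0.01 without knockdown replicate 3.

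For the 25 genes of the whole list that did not pass, log2 fold changes ran from −0.47 to 0.30. The 95% interval lay within 1 log2 unit of 0 for all 25 and within 0.5 log2 units for 20 of them, and 9 had an unadjusted p under 0.05. The genes that fell spanned the order of levels, with a median control level of 18.1 CPM per kb against 41.5 for those not called. Of the 9, Sap47, cpx, Rab3 and nSyb stood above the latter value, at 51.9, 56.2, 62.5 and 96.4 CPM per kb, and Synj and Frq1, among the lowest, did not pass.

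Other genes of the same processes were taken from lists of 100 genes, of which 98 were matched to the table and 87 tested. Of these, 9 fell, or 10.3%, where 4.11% of all tested features were called lower, and 0 rose (1 rise at an unadjusted p under 0.05, and 1 rise each with DESeq2 and limma-voom). The number called in either direction was 13 with DESeq2, 12 with limma-voom, 11 with a filter of 10 counts in every library, and 4 without control replicate 2. Among 14 other release and active zone genes, 3 fell. cac, the calcium channel of the fly active zone, was at 161, 185 and 151 CPM in control and 100.4, 109 and 110 CPM in knockdown, without overlap (log2 fold change −0.64, SE 0.0936, adjusted p 0.00218). Nrx-1, the presynaptic neurexin, changed by −0.53 (adjusted p 0.0155), and Srpk79D, a kinase that keeps brp from clumping in axons, by −0.37 (adjusted p 0.0164). The calls of Nrx-1 and Srpk79D were each lost without control replicate 1 or 2 or knockdown replicate 2 or 3, at adjusted p from 0.0547 to 0.0853. The median of these 14 was −0.21.

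Synaptotagmins, the vesicle calcium-binding proteins, had 4 falls among 8 tested genes. Syt1, the calcium sensor of fast release, was at 245, 269 and 273 CPM in control and 174, 188 and 208 CPM in knockdown (log2 fold change −0.46, SE 0.0837, adjusted p 0.00811). Syt4 changed by −0.27 (adjusted p 0.00811) and Syt7 by −0.38 (adjusted p 0.0073). Syt1 and Syt4 were not called without control replicate 2 (adjusted p 0.0535 and 0.0523). Among the listed and related genes Sytalpha had the largest difference, from 147, 158 and 154 CPM in control to 10.5, 11.2 and 8.29 CPM in knockdown (log2 fold change −3.94, SE 0.131, adjusted p 8.89e-08). The rest of the list, Syt12, Syt14, Sytbeta and Esyt2, had overlapping groups.

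General membrane traffic was set beside these lists. The trafficking SNARE list held 27 genes, some of them factors that act on SNAREs, such as Nsf2, gammaSnap1 and Vps45. Of the 27, Syx6 fell (log2 fold change −0.64, adjusted p 0.00579), and the median was −0.03. Nsf2, the second NSF of the fly, was at 0.01 (adjusted p 0.989). In this list 4 genes were lower and 0 higher at an unadjusted p under 0.05 in edgeR, and DESeq2 called 3 lower and limma-voom 2. Of 20 other endocytosis genes, Cip4, an F-BAR protein, fell (−0.51, adjusted p 0.0195, and 0.0534 to 0.101 without control replicate 1 or 2 or knockdown replicate 2 or 3), with a median of −0.01. Among 18 tested subunits of the vacuolar proton pump, edgeR, DESeq2 and limma-voom called 0, 0 had an unadjusted p under 0.05 in edgeR, and the median was 0.00. Another 11 pump genes were in the table and did not pass the expression filter, and Ca-beta and Vha44 were not matched to it.

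**Figure D5:**
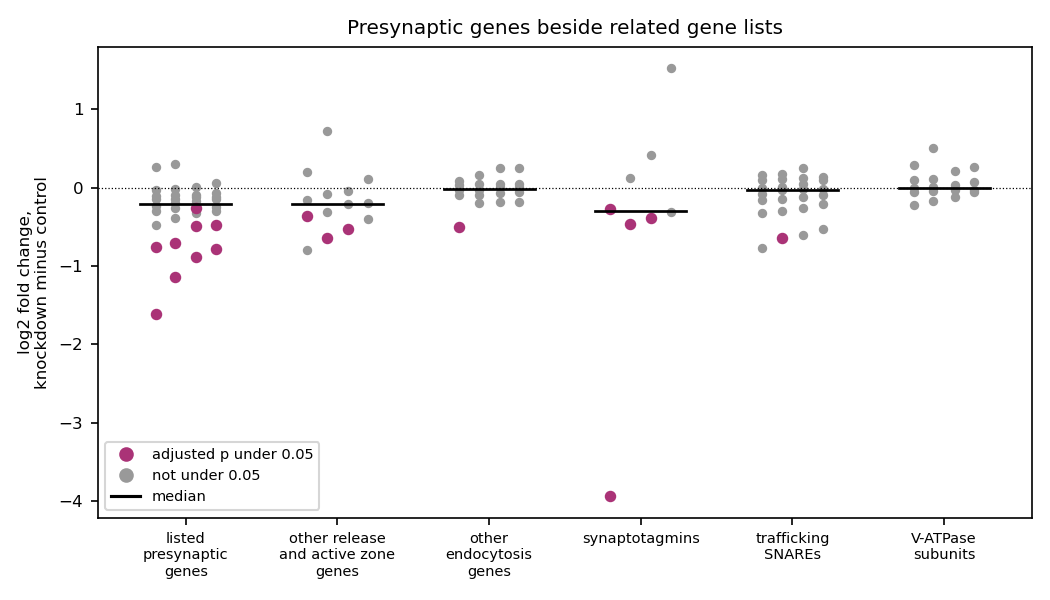
Log2 fold change (vertical axis, knockdown minus control) of the tested listed presynaptic genes and of 5 lists of related genes. Each point is a gene, purple marks an adjusted p under 0.05, and black bars are medians. Medians are −0.22 for the presynaptic genes, −0.21 for other release genes and −0.29 for synaptotagmins, and −0.03 to 0.00 for the endocytosis, trafficking SNARE and proton pump lists; the lowest point is Sytalpha at −3.94.

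Markers of other cells were measured in the same libraries. The summed level of 9 glial genes was 618 to 701 CPM in control and 834 to 897 CPM in knockdown, with nrv2, Gs2 and loco called higher, nrv2 holding 460 and 600 CPM of the group means, and repo, the defining glial transcription factor, at 9.74 and 9.82 CPM. Of the 9 glial genes, 33.3% were called higher, against 2.10% of all tested features. In 8 of the 9 the log2 fold change was above 0, and in 6 every knockdown library lay above every control library. The share of all tested features that lay wholly above control was not taken. In edgeR, 6 of the 9 were higher at an unadjusted p under 0.05, and DESeq2 called 4 higher and limma-voom 3. Of 6 hemocyte genes, 2 were tested, their sum was 30.8 to 36.8 CPM in control and 31.6 to 42.9 CPM in knockdown, Ppn was called higher and 3 of the 6 were at 0 in every library. Photoreceptor genes summed to 119 to 125 CPM in control and 110 to 134 CPM in knockdown, nearly all of it norpA, and 3 of 7 were at 0 in every library. Progenitor and cell cycle genes summed to 480 to 499 CPM in control and 512 to 528 CPM in knockdown, with 0 of 11 tested called (3 at an unadjusted p under 0.05, 1 called by DESeq2 and 0 by limma-voom). Epithelial and tracheal genes summed to 49.0 to 63.0 CPM in control and 190.0 to 227 CPM in knockdown, nearly all of it shg, which encodes E-cadherin and was called higher.

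Of the 7 pan-neuronal genes, which include nSyb and brp of the present list, nSyb, brp and futsch, a microtubule protein of axons, fell, while fne, an Elav-family gene, rose from 544 to 1277 CPM. futsch had a log2 fold change of −0.68 (adjusted p 0.00491). elav and CadN, the neuronal cadherin, did not pass, at −0.02 and −0.11, although every knockdown library of CadN lay below every control library. Rbp9, at 6.53 CPM in control, did not pass either, with overlapping groups (log2 fold change −0.43). The summed level of the 7 genes, fne included, was 3545 to 3555 CPM in control and 3768 to 4081 CPM in knockdown. What part any of these marker differences has in the falls of the presynaptic genes was not tested.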

How the data were processed

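RNA of sorted T4/T5 neurons was sequenced in 3 control and 3 Drgx knockdown libraries made with SMART-Seq v4, per the labels' protocols. That kit does not mark strand. The authors deposited raw counts per FlyBase feature; STAR, DESeq2 and the build BDGP6 are named in the submitters' processing notes without versions, and the counter, annotation release and strand setting are not given in the sources used here. Symbols, positions and exon lengths came from the Ensembl 115 annotation of BDGP6.54, which matched 23851 of 23932 identifiers and missed 81.

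Features were filtered with filterByExpr (minimum 10 counts) and scaled with TMM in edgeR 4.0.16 (R 4.3.3), which left 9932. The quasi-likelihood F test used the group as its only term, with Benjamini-Hochberg adjustment over all tested features and a threshold of 0.05. SE was derived from the fold change and its F statistic (the ratio of the absolute log2 value to the root of F), and 95% intervals use the test's degrees of freedom and are not adjusted. Levels per kb are TMM-normalised CPM divided by union exon length. Where a feature had no count, 3 counts was taken as the limit (0.0681 to 0.101 CPM by library); such limits ignore amplification, because the reads carry no molecular tags. Alternatives are other scalings and filters, DESeq2 1.42.0, limma-voom (limma 3.58.1), a replicate block and leaving out each library. Scripts were tested on simulated data.

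The genes, the lists and the tests were chosen with earlier results of these data known, and the lists come from general knowledge of the fly. Named genes are Drgx, all listed genes, and the called members of each related list. The comparison with abundant protein-coding genes was added after the data were seen.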

Additional observations from a re-analysis of the deposited data

How the results depend on the processing

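Drgx fell in each of the 13 alternatives, at log2 fold changes of −1.63 to −1.56, and the median log2 fold change of the listed genes stayed between −0.22 and −0.19. The number of listed genes called, all lower, was 9 in the main analysis, 14 with a filter of 10 counts in every library, 16 with DESeq2, 13 with limma-voom, and 6 to 9 without 1 library. With the replicate number as a block it was 8, cpx being lost (adjusted p 0.0735). Features called over the whole table went from 617 to 952 with DESeq2 and to between 399 and 556 without 1 library. Related genes called went from 9 to 13 with DESeq2 and to between 4 and 10 without 1 library. The block called 556 features over the whole table. Nothing in the labels says that same-numbered libraries are paired. Their deviations from the group means correlated at 0.0667, −0.0126 and −0.00727 over 6612 genes, and not every library correlated best with its own number. With so few libraries these values cannot exclude pairing. brp, Rim, nSyb, Syn, Sap47 and Rab3-GEF kept their call in all 14 fits, whereas Rab3 kept it in 10, Frq2 in 9 and cpx in 7. Signs turned only for Rbp, Caps and Vha100-1, which were near 0, and for Dap160, at −0.11 in the main analysis. They turned with library size only for Rbp (0.0147) and Caps (0.0026), and with limma-voom for Vha100-1 (−0.0026). Without 1 library they turned for Rbp (−0.0471 to 0.011), Caps (−0.0706 to 0.0149), Vha100-1 (−0.0451 to 0.0354) and Dap160 (−0.1757 to 0.0066). With the longest transcript as length, the ratio of nSyb to Syb was 6.78 in place of 6.46. The cause of these shifts was not tested. Every tested gene of the presynaptic list had at least 300 counts a library. Of the 25 genes not called, 20 had intervals within 0.5 log2 units of 0, and the intervals of the other 5 reached past that.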
